A study of Mus musculus with 38 samples.

Results

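The mRNA of 32 genes for microtubule proteins, motors and actin-binding proteins was followed in Neuro2A cells, a mouse neuroblastoma line that can extend neurites, over 24 h of all-trans-retinoic acid. The genes were taken by the start of their symbol (such as Kif, Clasp, Tln or Myo) from the 473 named probes of a 576-probe array of mouse KIAA genes, which are mostly long, brain-derived cDNAs. This gave 21 microtubule and motor genes and 11 genes counted as actin-binding. One of the 11, Ankfy1, was caught by its prefix only, since it encodes an endosomal Rab5 effector. Each gene had 1 probe.

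Treated cells received 20 uM retinoic acid in medium with 2% serum and were collected after 1 h (5 arrays), 3 h (5 arrays), 6 h, 12 h or 24 h (7 arrays each). The 7 control arrays (0 h) held cells after 48 h of preculture in 10% serum without retinoic acid. Each replicate pooled 4 to 6 plates of this one line. The labels name no vehicle control and no untreated cells at later times. Retinoic acid, lower serum and time in culture therefore cannot be told apart, against 0 h or between treated times. The labels do not say that replicates were separate cultures, so p-values measure the spread between these arrays, part of which may be technical.

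Microtubules are polar tubulin polymers that carry transport in neurites: most kinesins walk towards plus ends and cytoplasmic dynein towards minus ends. Further proteins cap, crosslink or modify the polymer, and kinases release proteins from it. Actin filaments shape the cell edge, where talins tie them to integrins and formins and nucleators build new filaments. Outgrowth of neurites needs both systems, and many of their proteins are controlled without a change in mRNA.

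Values are log2 Cy5 intensity after quantile normalisation, and levels of different probes are not set against each other. On each array 54.5% to 55.0% of the deposited values were below 1, so a log2 value near 0 marks about the same rank on every array and not an absolute amount. Of the markers of Neuro2A-like cells, only Nefh, a neurofilament subunit, was on the array. It averaged 0.98 ± 0.26 at 24 h and 1.29 ± 0.28 at 0 h (SD, n = 7 each, limma adjusted p = 0.565). The arrays differed in range: the central 50% of an array's deposited log2 values spanned 0.879 ± 0.157 at 24 h, against 1.51 ± 0.217 in the controls (SD, n = 7 each). In all, 8 arrays, 4 of them at 24 h, never reached the lowest value of the table (0.540, the floor). For a probe at that value only an upper bound is known. Of the members, 15 were never at the floor, and the most affected was Kif17, at the floor on 19 of 38 arrays. The 5 arrays of lowest rank correlation with the rest (0.593 to 0.698) were replicate 1 at 1, 3 and 24 h, replicate 3 at 6 h and replicate 5 at 12 h. Each call below was recomputed without them, and that of Ablim1 at 6 h was lost.

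Mark3 was the only member called in any of the 7 contrasts. It encodes a microtubule affinity-regulating kinase, which phosphorylates microtubule-associated proteins and so detaches them from the polymer. In the controls its lowest, median and highest normalised log2 intensities were 0.60, 1.10 and 1.43. The arrays at 1 h read 0.80, 1.44, 1.44, 1.21 and 1.37. Those at 3 h read 0.96, 0.46, 0.43, 0.53 and 1.12. The lowest, median and highest values were -0.05, 0.49 and 1.01 at 6 h, 0.38, 0.62 and 0.90 at 12 h, and -0.12, 0.35 and 0.93 at 24 h. All 7 arrays at 24 h lay below the control mean, but the 2 groups overlapped.

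Mark3 averaged 0.36 ± 0.40 at 24 h and 1.03 ± 0.31 at 0 h (SD, n = 7 each). It fell 1.59-fold, a log2 change of -0.67 ± 0.16 (SE, limma adjusted p = 0.0241). At that time 1.04% of all probes were called, and Mark3 was 1 of 21 microtubule members and 1 of 32 members. The moderated F test over the 5 times also passed (adjusted p = 0.0174), and there too 1.04% of all probes were called. The log2 changes at 1, 3, 6 and 12 h were 0.22, -0.33, -0.54 and -0.38, and none of these passed (adjusted p = 0.401 to 0.994). Mark3 was never at the floor.

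**Figure D1:**
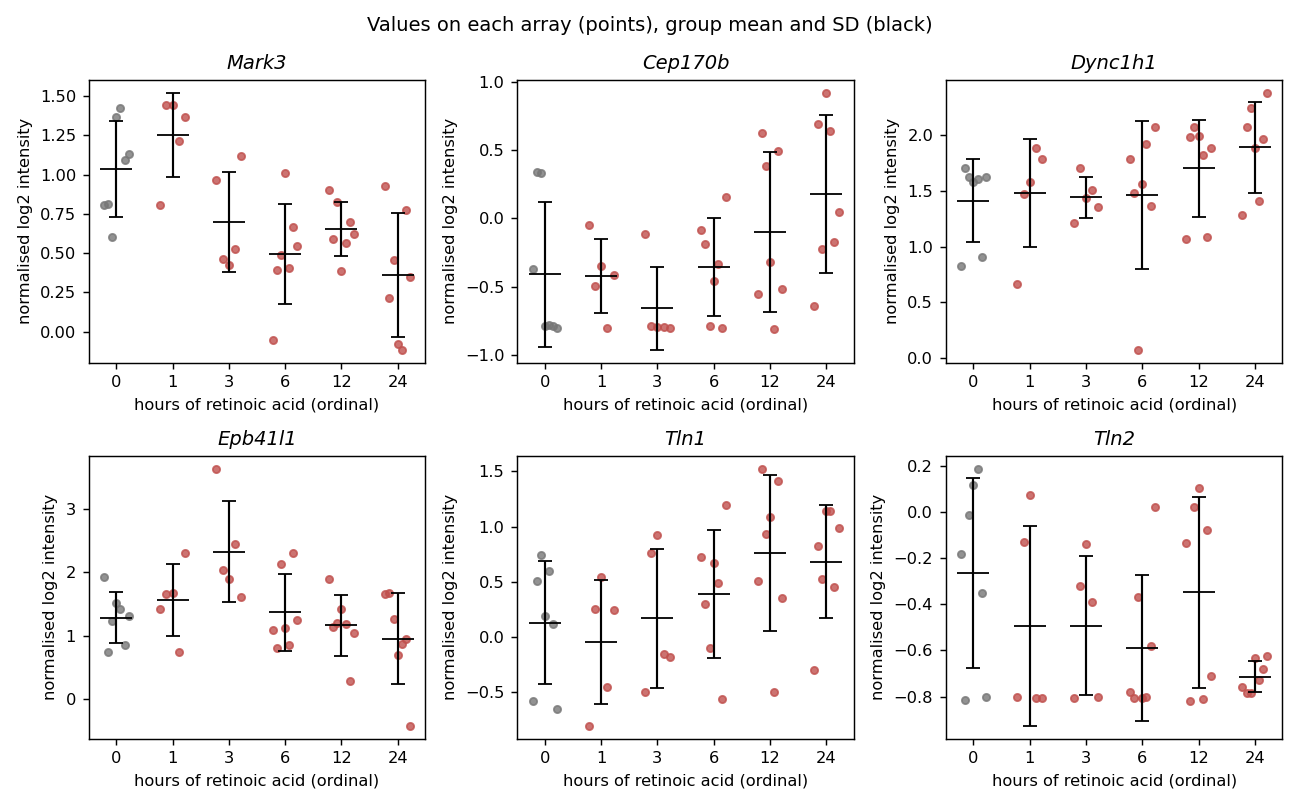
Normalised log2 intensity (vertical axis) on each array (points) at 0 h (grey) and after 1 to 24 h of retinoic acid (red, times evenly spaced), with group mean and SD in black, for 6 members. Mark3 reads 0.36 ± 0.40 at 24 h and 1.03 ± 0.31 at 0 h, with overlap; the other 5 genes shown had no adjusted p under 0.05 against 0 h.

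The call depends on the processing. Over 13 other settings the log2 change of Mark3 at 24 h ran from -1.06 to -0.51, negative in 13 of 13, and it was called in 10. It was lost when the range of each array entered as a covariate, with normalised values (log2 change -0.53, adjusted p = 0.328) or as deposited (-0.54, adjusted p = 0.142), and when only the arrays at 24 and 0 h were fitted (-0.67 as before, adjusted p = 0.164). Leaving out 1 array at a time kept the call in 31 of 38 fits. It ended without control replicate 4, 5, 6 or 7 and without 24 h replicate 2, 4 or 5, with adjusted p between 0.0555 and 0.0941 and log2 changes between -0.66 and -0.59. Without the 5 arrays of lowest correlation the change was -0.79 (adjusted p = 0.00861). The narrower range of the 24 h arrays moves with this result, and its part in it was not tested beyond the covariate fits.

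**Figure D2:**
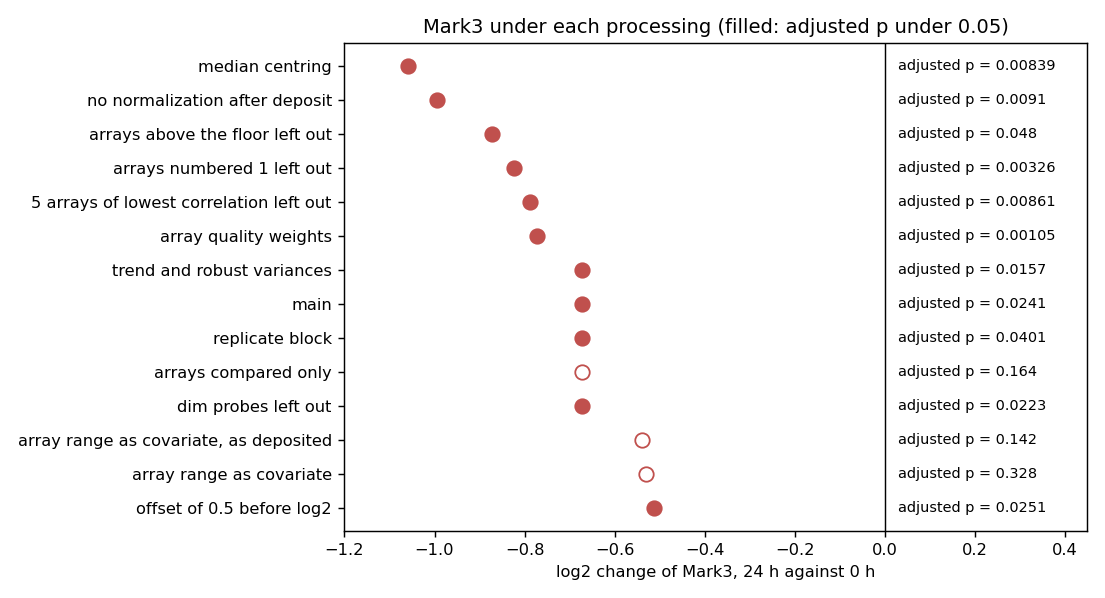
Log2 change of Mark3 at 24 h against 0 h (horizontal axis) under the main processing and 13 others (rows), filled where the adjusted p is under 0.05. All points lie between -1.06 and -0.51, and 3 of the 13 others are open.

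Promoters of Mark3 and of 3 other members are printed because retinoic acid receptors bind repeats of a half-site, here AGGTCA, searched on both strands. The windows run from 250 bases before to 50 after a gene start, from RefSeq (GRCm38.p6). They are at chr12:111574260-111574559 for Mark3, chr2:49619036-49619335 for Kif5c, chr12:79028913-79029212 for Plekhh1 and chr5:66857219-66857518 for Limch1, all on the plus strand. The 3 members beside Mark3 were taken from those with a match, all named below. For Limch1 the window printed is number 2 of 3, taken because it holds the half-site. Its window number 1 holds none and number 3 holds 1. Capitals mark the exact string AGGTCA in either orientation, and the Mark3 window holds none. Near matches, such as the GGGTCA in the Mark3 window, were not searched.
Mark3: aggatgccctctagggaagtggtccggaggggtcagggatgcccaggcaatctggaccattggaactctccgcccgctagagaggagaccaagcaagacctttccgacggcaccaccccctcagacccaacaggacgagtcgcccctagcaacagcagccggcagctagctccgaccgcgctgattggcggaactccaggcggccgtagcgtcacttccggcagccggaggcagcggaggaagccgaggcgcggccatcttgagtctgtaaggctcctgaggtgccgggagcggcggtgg
Kif5c: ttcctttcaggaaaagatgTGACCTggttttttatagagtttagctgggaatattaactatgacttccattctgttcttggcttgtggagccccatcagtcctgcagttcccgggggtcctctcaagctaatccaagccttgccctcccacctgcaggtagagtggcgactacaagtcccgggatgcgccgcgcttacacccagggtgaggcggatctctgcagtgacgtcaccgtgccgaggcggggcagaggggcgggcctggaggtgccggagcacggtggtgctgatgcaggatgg
Plekhh1: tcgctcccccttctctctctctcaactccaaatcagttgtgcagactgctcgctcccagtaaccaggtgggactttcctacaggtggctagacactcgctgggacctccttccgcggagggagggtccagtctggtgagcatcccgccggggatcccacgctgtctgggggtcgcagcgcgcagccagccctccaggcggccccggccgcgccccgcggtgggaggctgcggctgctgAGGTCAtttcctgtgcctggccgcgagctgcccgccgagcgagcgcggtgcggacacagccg
Limch1: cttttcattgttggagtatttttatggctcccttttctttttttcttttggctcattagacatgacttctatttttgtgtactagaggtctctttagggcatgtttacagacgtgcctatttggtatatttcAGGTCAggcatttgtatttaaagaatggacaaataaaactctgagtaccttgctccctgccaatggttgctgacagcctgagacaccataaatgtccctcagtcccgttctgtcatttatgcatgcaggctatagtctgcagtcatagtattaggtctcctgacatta

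Promoters were searched for 28 of the 32 members, 43 windows in all. The member search skipped a chromosome that the count over all promoters kept, so the shares below cover unlike sets. The half-site lay in 6 of the 43 (14%), in Kif5c, Limch1, Mical3, Mtus2 and Plekhh1, against 16.3% of all 32851 promoters. Direct repeats of the half-site with 2 or 5 bases between them, the spacings these receptors favour, were in 0 of the 43 and each in 0.00913% of all promoters. At that share, 43 windows are too few to show a difference. A match is a description of letters and not a bound site.

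Among the motors, no member passed at any time. Kif5c is a neuronal heavy chain of conventional kinesin, which moves cargo into axons. Its lowest, median and highest values were 0.19, 1.08 and 1.92 at 24 h, against 0.08, 0.71 and 1.24 at 0 h, with wide overlap. The log2 change was 0.34 ± 0.31 (SE, adjusted p = 0.619), and its sign turned with the values as deposited (-0.03), with median centring (-0.09) and in both fits with array range (-0.13 and -0.10). Dync1h1, the heavy chain of cytoplasmic dynein, read 1.28, 1.97 and 2.38 at 24 h, against 0.82, 1.60 and 1.71 at 0 h. Its highest control lay below the 24 h median, but the log2 change of 0.48 ± 0.24 did not pass (SE, adjusted p = 0.565) and was -0.16 as deposited and -0.22 with median centring.

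Kif17, a kinesin of dendritic transport, read -0.82, -0.73 and -0.38 at 24 h, against -0.81, -0.79 and -0.65 at 0 h. It was at the floor on 1 array at 24 h and on 5 of 7 controls, so its log2 change of 0.10 ± 0.07 (SE, adjusted p = 0.565) rests on values close to the lower limit. Kif1b, which carries synaptic vesicle precursors, and Kif3b, a subunit of the kinesin of cilia, were among the 13 microtubule members outside the 8 with the smallest F-test p.

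Of the centrosomal genes, Cep170b, a relative of the centrosomal protein Cep170, had the highest log2 change at 24 h of the microtubule members. It read -0.64, 0.04 and 0.92 at 24 h, against -0.80, -0.78 and 0.34 at 0 h, where 4 of 7 arrays were at the floor. The groups overlapped, and the change of 0.59 ± 0.25 did not pass (SE, adjusted p = 0.490). Cep192, a scaffold that recruits pericentriolar material, read -0.72, -0.36 and -0.09 at 24 h, against -0.26, 0.06 and 0.21 at 0 h. All 7 arrays at 24 h lay below the control mean, yet the change of -0.39 ± 0.16 did not pass either (SE, adjusted p = 0.490). These 2 genes had unadjusted p-values of 0.0247 and 0.0245.

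Ckap5, a polymerase of microtubule plus ends, read 0.65, 1.19 and 1.89 at 24 h, against 0.34, 1.51 and 1.86 at 0 h, nearly the same span. Its log2 change was -0.03 ± 0.25 (SE, adjusted p = 0.966), with the sign turned in the fits with array range (0.26 and 0.31). Mast2, a microtubule-associated serine/threonine kinase, read -0.10, 0.17 and 0.92 at 24 h, against -0.35, 0.57 and 1.27 at 0 h. Here 5 of 7 treated arrays lay below the control mean, and the change of -0.26 ± 0.22 did not pass (SE, adjusted p = 0.617).

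The other 13 microtubule members were Camsap2 (binds minus ends), Clasp1 and Clasp2 (stabilise plus ends), Nav1 and Nav3 (neuron navigators at plus ends), Macf1 (a spectraplakin that joins actin to microtubules), Mtcl1 (a crosslinker), Map7d1, Mtus2, Mast1, Ttll5 (a tubulin-modifying ligase), Kif1b and Kif3b. At 24 h 7 of them were higher and 6 lower, between -0.43 for Camsap2 and 0.26 for Mtcl1, and the smallest adjusted p was 0.565. At 3 h they ran from -0.70 for Map7d1 to 0.57 for Macf1, and at 6 h from -0.65 for Map7d1 to 0.45 for Nav3. Map7d1 also had the widest replicate spread of any member, a residual SD of 0.81, against 0.12 for Kif17, the narrowest.

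**Figure D3:**
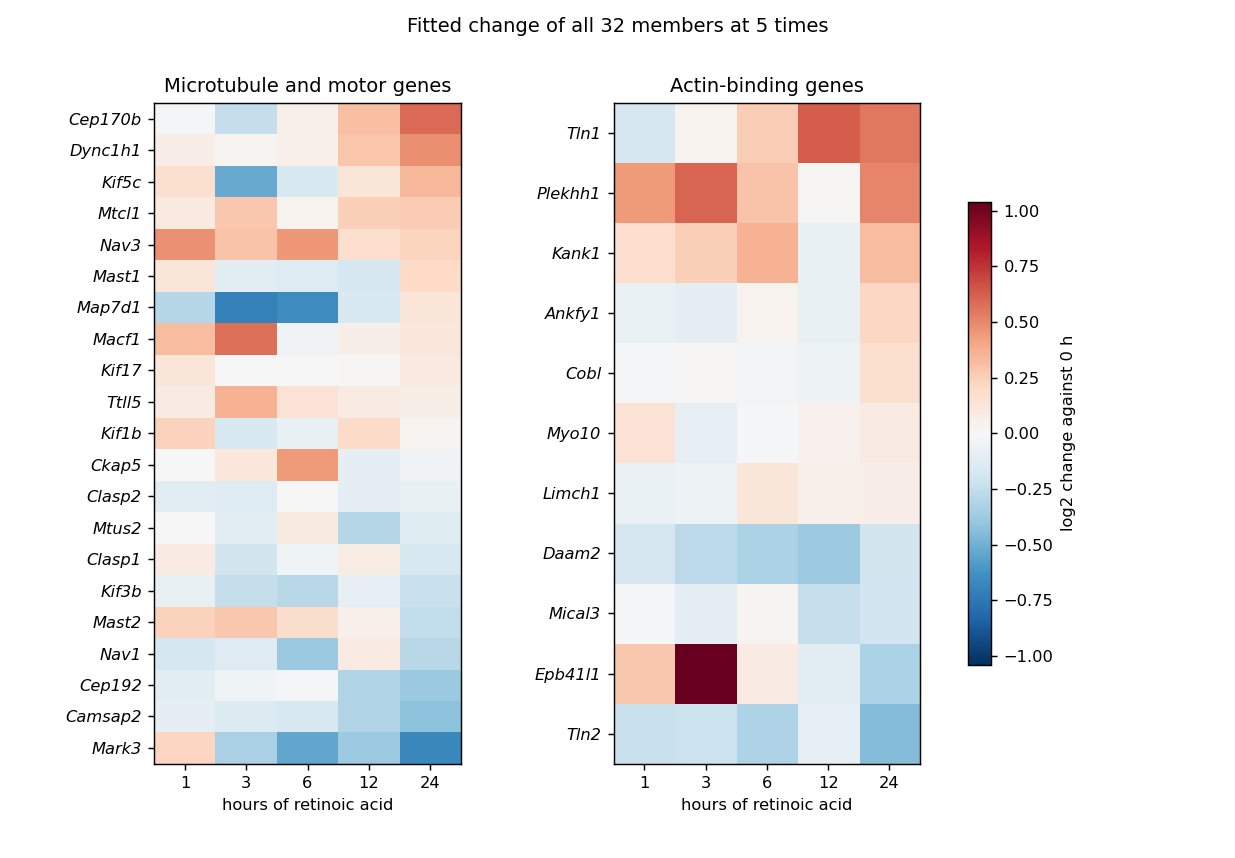
Fitted log2 change against 0 h (colour, red higher and blue lower) of the 21 microtubule members (left) and 11 actin members (right), sorted by the 24 h value, after 1 to 24 h (columns). Within each class some rows are red and others blue at 24 h, from 0.59 for Cep170b to -0.67 for Mark3 and from 0.55 for Tln1 to -0.45 for Tln2.

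The microtubule members were split in direction at 24 h: 11 were higher and 10 lower, with a median log2 change of 0.03, beside -0.01 over all 576 probes. As deposited the median of the microtubule members was -0.16, and with median centring -0.22, beside 0.09 and 0.02 over all probes. None was called at 1, 3, 6 or 12 h, where 0.00%, 0.00%, 0.174% and 0.00% of all probes were called. At an unadjusted p under 0.05, 3 of 21 passed at 24 h, where 6.77% of all probes did. Over both classes, 0, 1, 1 and 1 of 32 members passed that limit at 1, 3, 6 and 12 h, beside 1.39%, 5.38%, 5.73% and 3.99% of all probes, and 2 in the F test, beside 6.42%. No member had 24 h arrays wholly apart from the controls, where 7.99% of all probes did.

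No actin-binding member was called in any contrast by limma. At 24 h 7 were higher and 4 lower, with a median log2 change of 0.08. That median was 0.33 as deposited, 0.27 with median centring and 0.25 without the 8 arrays that never reach the floor. Over all probes the medians in these settings were 0.09, 0.02 and -0.003. Only 1 of the 11, Tln2, had an unadjusted p under 0.05 at 24 h. Leaving out Ankfy1 gave 6 higher, 4 lower and a median of 0.07.

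The talins link integrins to actin, and the 2 genes of the family had changes of opposite sign. Tln1, the widely expressed talin, read -0.30, 0.83 and 1.14 (lowest, median and highest) at 24 h, against -0.65, 0.19 and 0.74 at 0 h. Its log2 change was 0.55 ± 0.31 (SE, adjusted p = 0.565), with 6 of 7 treated arrays above the control mean. Tln2, the talin abundant in brain and muscle, read -0.78, -0.73 and -0.62 at 24 h, against -0.81, -0.18 and 0.19 at 0 h. All 7 treated arrays lay below the control mean and close to the lower limit, 2 controls were at the floor, and the change was -0.45 ± 0.18 (SE, adjusted p = 0.490).

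The difference Tln1 minus Tln2 within an array was 1.00 larger at 24 h than at 0 h (7 arrays each). The pair was picked for its opposite signs, so a permutation test that was run on it cannot serve as a test, and its p-value is not given. The difference is a description, and it rests on Tln2 values at 24 h that lie near the lower limit. On the values as deposited the difference was 0.57. It ran from 0.87 to 1.16 when 1 array of the 2 groups was left out. For Clasp1 minus Clasp2, Mast1 minus Mast2 and Nav1 minus Nav3, taken beside it, the differences were -0.09, 0.46 and -0.52. Mast1 and Mast2 (0.21 and -0.26) and Nav1 and Nav3 (-0.29 and 0.23) also had log2 changes of opposite sign.

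**Figure D4:**
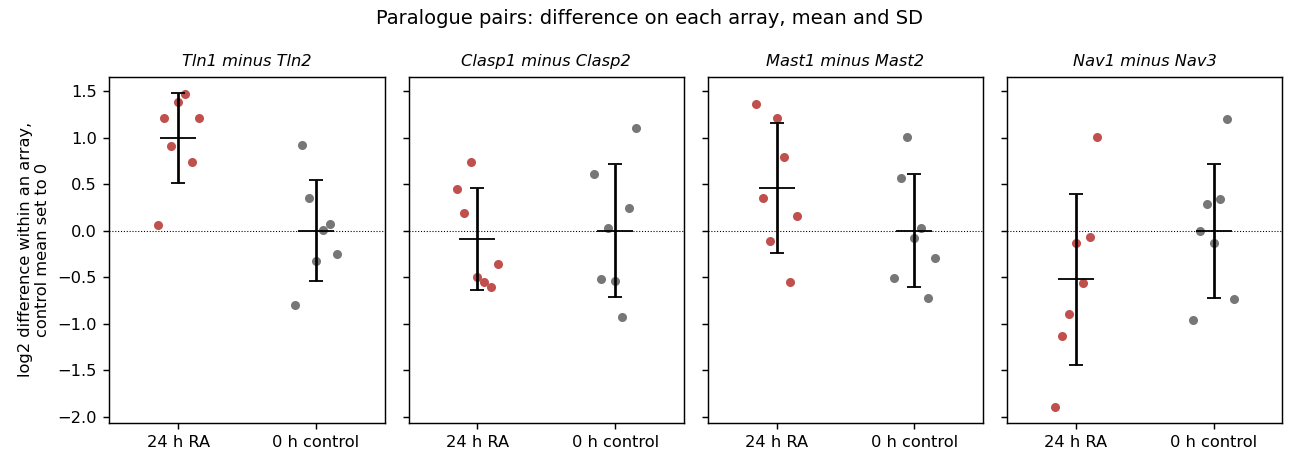
Difference of 2 paralogues within each array (points, log2, each pair's control mean set to 0) at 24 h of retinoic acid (red) and 0 h (grey), with mean and SD in black. Tln1 minus Tln2 is 1.00 higher at 24 h, with overlap, while the other 3 pairs differ by -0.52 to 0.46.

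Epb41l1 encodes protein 4.1N, which joins membrane proteins to the spectrin and actin skeleton of neurons. At 1 h its arrays read 1.43, 1.66, 1.67, 0.74 and 2.31, and at 3 h 3.63, 2.04, 1.89, 2.45 and 1.60. The lowest, median and highest controls were 0.74, 1.31 and 1.92. Thus 3 of the 5 arrays at 3 h lay above every control, and replicate 1, one of the arrays of low correlation, was the highest. The log2 change at 3 h was 1.04 ± 0.34 (SE, unadjusted p = 0.00492, adjusted p = 0.528), where 5.38% of all probes had an unadjusted p under 0.05. At 24 h the values were -0.42, 0.94 and 1.67, and the log2 change was -0.33 ± 0.31 (SE, adjusted p = 0.653).

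Plekhh1, a protein with PH, MyTH4 and FERM domains, read -0.63, 0.12 and 0.82 at 24 h, against -0.80, -0.57 and 0.29 at 0 h, a log2 change of 0.51 ± 0.27 (SE, adjusted p = 0.565). Kank1, an adaptor that binds talin, read -0.79, -0.41 and 0.23 at 24 h, against -0.81, -0.78 and -0.24 at 0 h, a change of 0.32 ± 0.20 (SE, adjusted p = 0.565). Both were at the floor on some controls (3 and 4 of 7) and on no 24 h array, but 4 of the 7 arrays at 24 h held no probe at the floor. Cobl, an actin nucleator of dendrite branching, read -0.79, -0.74 and 0.18 at 24 h, against -0.81, -0.79 and -0.35 at 0 h, a log2 change of 0.17 ± 0.10 (SE, adjusted p = 0.565). Limch1, an activator of non-muscle myosin II, read -0.78, -0.69 and -0.33 at 24 h, against -0.79, -0.72 and -0.51 at 0 h, a change of 0.07 ± 0.07 (SE, adjusted p = 0.715). Most values of these 2 genes lay near the lower limit, and 5 and 3 of 7 controls were at the floor. Ankfy1 read 0.46, 0.67 and 1.21 at 24 h, against 0.21, 0.54 and 0.69 at 0 h, with the 24 h median inside the control range. It had a log2 change of 0.21 ± 0.14 (SE, adjusted p = 0.565), and of -0.11 as deposited. The other 3, Daam2 (a formin), Mical3 (of the actin-oxidising Mical family) and Myo10 (the motor of filopodia), lay between -0.20 and 0.08.

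Late minus early set the mean of 12 and 24 h (14 arrays) against the mean of 1 and 3 h (10 arrays), all after the change of medium. With no untreated arrays at these times, hours of retinoic acid, of lower serum and of culture cannot be told apart here either. Array range also differed: it averaged 1.56 ± 0.14 and 1.64 ± 0.09 at 1 and 3 h, against 1.13 ± 0.54 and 0.88 ± 0.16 at 12 and 24 h (SD). Its part was not tested beyond the covariate fits. No member was called in late minus early, where 0.347% of all probes were. At an unadjusted p under 0.05, 7 of 32 members passed, 4 microtubule and 3 actin, where 13.5% of all probes did. Epb41l1 had lowest, median and highest values of -0.42, 1.15 and 1.89 late and 0.74, 1.78 and 3.63 early, a log2 difference of -0.88 ± 0.24 (SE, adjusted p = 0.0798). All 14 late arrays lay below the early mean. Mark3 read -0.12, 0.58 and 0.93 late and 0.43, 1.04 and 1.44 early, with all 14 late arrays below the early mean, a difference of -0.47 ± 0.13 (SE, adjusted p = 0.0794).

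The differences of Cep170b (0.58 ± 0.19), Tln1 (0.66 ± 0.24), Cep192 (-0.27 ± 0.13), Mast2 (-0.36 ± 0.17) and Limch1 (0.12 ± 0.06, all SE) had adjusted p-values between 0.148 and 0.355. These counts move with the scaling: as deposited, 6 members were called (Epb41l1, Mast2, Mark3, Limch1, Cep170b and Cobl), where 13.5% of all probes were, and with array quality weights 12, where 28.8% were. With array range as a covariate 0 were called.

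**Figure D5:**
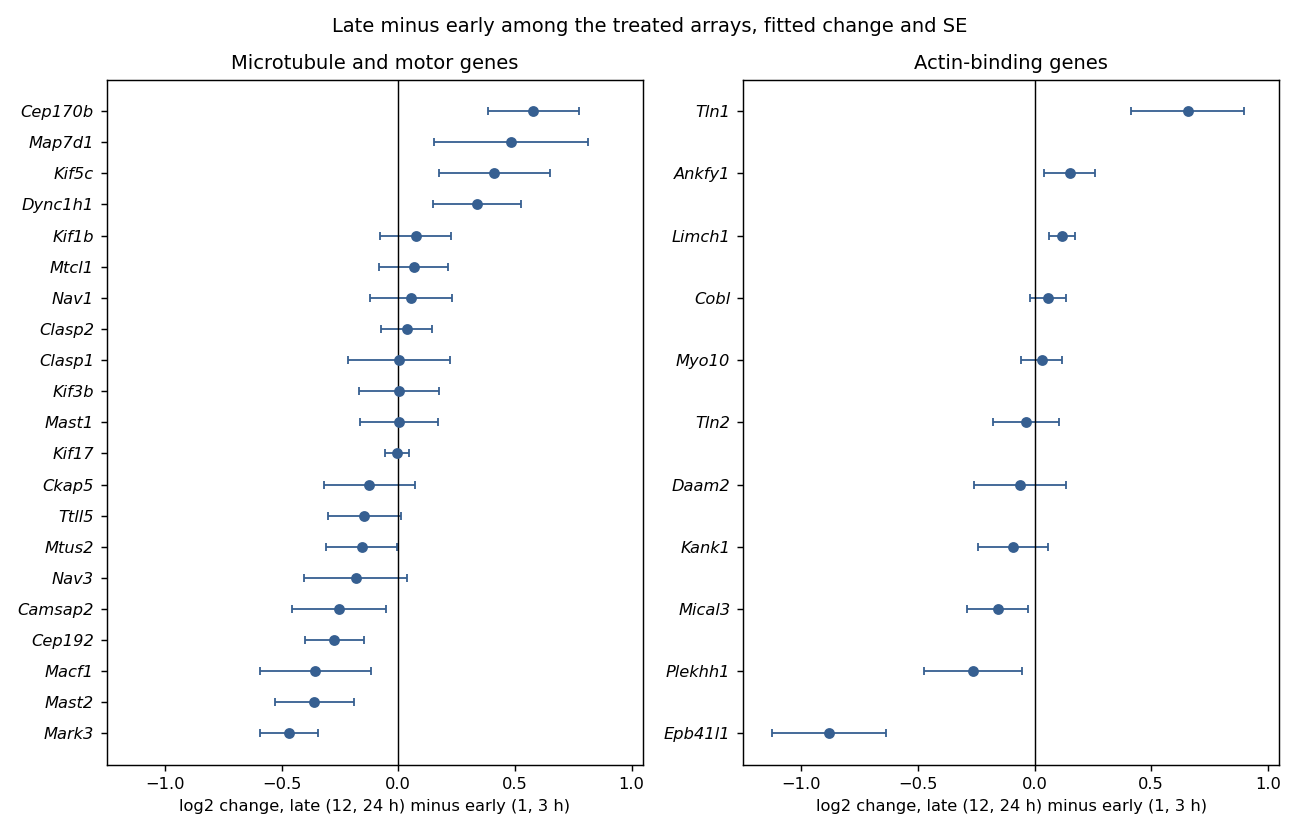
Log2 difference, late (12 and 24 h) minus early (1 and 3 h), with its SE (horizontal axis), of each microtubule member (left) and actin member (right), on quantile-normalised values. Cep170b (0.58) and Tln1 (0.66) are highest in their classes and Mark3 (-0.47) and Epb41l1 (-0.88) lowest, and none has an adjusted p under 0.05.

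Outside the prefix rule, 11 further microtubule genes and 15 further actin genes from a list of the same pathways were measured. Of the 11, none was called at 24 h. Among the 3 with the smallest F-test p were Cltc, the clathrin heavy chain, which also binds the mitotic spindle (-1.003 ± 0.35), and Pcnt, a scaffold of the centrosome (-0.08 ± 0.28; SE, adjusted p = 0.318 and 0.917). Of the 15, 1 rose and 1 fell at 24 h, where 1.04% of all probes were called: Cyfip2, part of the WAVE complex behind branched actin (1.00 ± 0.20, SE, adjusted p = 0.00485), and Ablim1, an actin-binding LIM protein (-0.89 ± 0.20, SE, adjusted p = 0.00968). Ablim1 had log2 changes of -0.27, -0.28, -0.88 and -0.67 at 1, 3, 6 and 12 h. Of these the 6 h value passed (SE 0.20, adjusted p = 0.0429), and it was the 1 probe of 576 called at 6 h. That call held in 8 of 13 other settings and 18 of 38 fits without 1 array, over which its adjusted p ran from 0.0156 to 0.161 and from 0.0237 to 0.182. It was lost without the 5 arrays of lowest correlation, where no probe was called at 6 h. Actg1, cytoplasmic gamma-actin, came next in that list, with -0.80 ± 0.32 (SE, adjusted p = 0.490).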

How the data were processed

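Per the labels' protocols, poly(A) RNA was labelled with Cy5 and hybridised to single-colour oligonucleotide arrays. The deposited values are linear Cy5 intensity for 576 probes on 38 arrays, and the authors' background correction, scaling and floor are not given in the sources used here. Probes were named from the platform annotation, and all 32 members matched RefSeq (GRCm38.p6).

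Values were taken to log2 and quantile normalised, since array medians differed by 0.23, over a limit of 0.1. All probes were fitted with limma 3.58.1 (R 4.3.3) on 6 groups (32 residual degrees of freedom). Moderated two-sided tests were adjusted by Benjamini-Hochberg over 576 probes, threshold 0.05. The 7 contrasts were each time against 0 h, late minus early, and an F test over 5 times. The fit was also run on simulated data, whose outcome is not given here.

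Array values at 24 h and 0 h, or at more times, were given for each called member and the 8 members per class with the smallest F-test p. Of other cytoskeletal genes, those called and the 3 with the smallest F-test p per list were named, except 1 that is not reported here. Members and lists were chosen with earlier results of these data known. The 4 paralogue pairs, 3 of the alternatives, and the restriction of individually recomputed values to the 16 members named above were chosen after seeing the data.

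Replicate numbers were not used as pairs in the main fit. Between arrays of different groups, the median correlation of residuals was 0.047 for the same number and -0.0037 for other numbers. Of 87 same-numbered pairs, 35 exceeded 0.1. A weak link by number is not excluded. Precision is limited by the number of arrays.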

Additional observations from a re-analysis of the deposited data

Results flagged for a closer look

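Within groups of 5 or 7 arrays, 17 of 192 groups of member values held an array set far apart from the rest of its group, in 13 members. Chance flags about 1 in 20 groups of normally spread values. In Cep170b, Kif17 and Limch1 at 3 h and Limch1 at 1 h, 4 of 5 arrays were at the floor. There a single value above the floor stands apart, so the rate does not hold for such groups. Of the 17 values (normalised log2 intensity), 11 came from treated arrays numbered 1. At 1 h, replicate 1 was high for Kank1 (0.46), Mast1 (1.47), Limch1 (-0.62) and Daam2 (0.73). At 3 h, replicate 1 was high for Cep170b (-0.11), Kif17 (-0.64) and Daam2 (0.53) and low for Macf1 (0.0024) and Nav1 (-0.81). At 24 h, replicate 1 was high for Myo10 (0.094) and Daam2 (1.03). These 3 arrays were also among the 5 of lowest correlation with the rest. Control replicate 1 was low for Camsap2 (-0.72). At 6 h, replicate 3 was high for Kank1 (0.80) and Plekhh1 (0.97) and low for Dync1h1 (0.072), and replicate 7 was high for Ttll5 (0.66). At 3 h, replicate 5 was high for Limch1 (-0.53), where the other arrays lay between -0.81 and -0.79. Mark3, Tln1, Tln2 and Epb41l1 had no such array.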

How the results depend on the processing

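Mark3 at 24 h kept its sign in all 13 other settings and 38 leave-one-out fits. With array range as a covariate, on normalised values or as deposited, and with arrays compared only, 0 microtubule members were called at 24 h. Of all probes, 0.347%, 12.5% and 0.868% were called there. The count was 2 with array quality weights (Mark3 and Cep170b), where 1.56% of all probes were called. It was 0 to 1 leaving out 1 array at a time. The F test called 0 microtubule members with either range covariate and without the 8 arrays above the floor (Mark3 adjusted p = 0.337, 0.0869 and 0.0819). It called 4 with array quality weights. In these fits 0.347%, 0.347%, 1.04% and 12.3% of all probes were called. The same test called 1 actin member with median centring, 2 as deposited and 3 with array quality weights. There 2.26%, 2.95% and 12.3% of all probes were called. At 3 h, array quality weights called 1 microtubule and 1 actin member, where 2.6% of all probes were called. Late minus early was the least stable: microtubule members called numbered 3 as deposited, 3 with median centring, 2 with trend and robust variances, 8 with array quality weights, 2 without arrays numbered 1, 2 without the 5 arrays of lowest correlation, and 0 to 1 leaving out 1 array. Actin members called numbered 3, 2, 1 and 4 under the first 4 of these, and 0 to 1 leaving out 1 array. Under those 4, late minus early called 13.5%, 11.3%, 13.9% and 28.8% of all probes. It called 1.56% without arrays numbered 1 and 2.26% without the 5 arrays of lowest correlation. The causes were not tested.

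Signs of uncalled 24 h changes turned for Kif5c (-0.025 as deposited, -0.090 median centred, -0.13 and -0.10 with array range, normalised and as deposited), Dync1h1 (-0.16 as deposited, -0.22 median centred), Ankfy1 (-0.11 and -0.17), Ckap5 (0.26 and 0.31 with array range, -0.20 to 0.069 leaving out 1 array), Kif17 (-0.025 with array range as deposited), and Pcnt (0.0018 with array quality weights, 0.0072 without arrays above the floor, -0.27 to 0.073 leaving out 1 array). Clasp1 minus Clasp2 was 0.10 as deposited and median centred, and -0.24 to 0.095 leaving out 1 array. Individual values were recomputed only for the named members, a restriction made after all 32 had been seen. Over all 32, the 24 h sign turned for 8 as deposited, 6 with median centring, 9 with array range as a covariate, 6 with it as deposited, and 0 to 3 leaving out 1 array. For late minus early these counts were 9, 11, 9, 7 and 0 to 5. Cyfip2 and Ablim1 at 24 h were called in 11 and 12 of the 13 other settings. With the replicate block, Mark3 at 24 h was still called (-0.67, adjusted p = 0.0401), and no other member was in any contrast; 10 of 38 arrays correlated best with their own number. Uncalled members near 0 therefore have no settled direction. The same holds for larger changes whose sign turned, such as Dync1h1 (0.48 in the main fit) and Kif5c (0.34). The floor limits what dim probes can show.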
